A study of Oryza sativa with 2 samples.

Results

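Rice leaves carry a set of genes that respond to drying, cold and abscisic acid (ABA), and 10 of them were followed here in 2 leaf libraries, 1 of the *yl-1* mutant and 1 of wild-type. They are the *Rab16* dehydrin genes *Rab16A*, *Rab16B*, *Rab16C* and *Rab16D*, the late embryogenesis abundant gene *LEA3*, the DREB factors *DREB1A*, *DREB1B* and *DREB2A*, and the bZIP factors *bZIP23* and *bZIP46*. They were chosen by locus ID with earlier results of these data known, so shares over all entries are not an unbiased contrast. All 10 were found among the 42152 entries of the deposited table, each in an entry of its own. The RefSeq gene table (assembly ASM3414082v1) held 9 of the names, with *Rab16A* under its older name RAB21, on the chromosomes that the locus IDs give, while *bZIP46* was not matched.

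The *yl-1* mutant was found among EMS-mutagenized plants of the *indica* cultivar Zhongjiazao 17 and carries a single-base change in *YL-1* (LOC_Os01g17170), which encodes a subunit of the cyclase that closes the fifth ring of chlorophyll. Other EMS changes that this line may carry were not examined here. The wild-type was Zhongjiazao 17 itself. Leaves were sampled from 4-week-old plants, and the sample labels describe seedlings on half-strength MS medium with 12 h of light at 300 μmol photons per square metre per second and a constant 26°C. The labels name no drought, salt, cold or ABA treatment for either genotype, so the values below are levels in unstressed leaves as far as the labels tell.

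FPKM, the unit of the deposited values, is the number of fragments divided by transcript length and by the library's mapped fragments, so levels of different genes can be set side by side per length. FPKM summed to 823855 in the *yl-1* library and 738866 in the wild-type library, and 19955 and 20902 entries were above 0. The number of reads behind each value is unknown. With 1 library per genotype there is no spread between plants, no test was possible, and every difference below describes these libraries only. The labelled tissue was checked with 5 leaf markers, at 409 to 43190 FPKM in the *yl-1* library and 338 to 33607 FPKM in the wild-type library. Of 5 seed storage genes, in whose tissue LEA proteins abound, 4 were listed at 0 in both libraries and the other stood at 0.083 FPKM in the *yl-1* library and 0.074 FPKM in the wild-type library, and a root marker was listed at 0 in both.

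In the library labelled *yl-1*, *YL-1* itself was read at 1124 FPKM, against 671 FPKM in the library labelled wild-type. A point mutation need not change the transcript level, but the text published with these data describes *YL-1* transcript as reduced in the mutant, which runs against the deposited headings. Its qRT-PCR of other chlorophyll genes divides, with the Mg-chelatase genes *CHLH* and *CHLI* in the direction of the deposited headings and *YGL1*, *CAO1* and *DVR* in the opposite one. Genotypes are named here as in the deposited column headings. A listing of 24 loci published with these data prints most of the deposited values under exchanged names. Within 0.0051 FPKM, 23 of its values headed wild-type equal the deposited *yl-1* column, 18 of its values headed *yl-1* equal the deposited wild-type column, and 0 match the deposited column that bears their own heading. The remaining values of the listing equal neither deposited column, so it differs by more than an exchange of names. In it *YL-1*, *CHLH*, *CHLI*, *YGL1*, *CAO1* and *DVR* all stand in the direction that the published text gives. None of the 10 genes is among the 24 loci. If the names of that listing hold, every "lower" below reads "higher" and the other way round, which neither the files nor those divided qRT-PCR directions settle.

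When leaves dry, ABA binds to PYL receptors, which then hold back clade A protein phosphatases 2C. SnRK2 kinases are thereby released and phosphorylate bZIP factors, and these bind ABA-responsive elements in the promoters of target genes such as *Rab16* and *LEA3*. DREB factors are AP2-domain proteins that bind another promoter element, the DRE, and in rice *DREB1A* and *DREB1B* are known for their response to cold and *DREB2A* for its response to drought and salt. Dehydrins and LEA proteins are hydrophilic proteins that protect other proteins and membranes as water is lost.

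Transcripts of these genes mostly stood lower in the *yl-1* library. Of the 10 genes, 9 were lower in the *yl-1* library than in the wild-type library, and *bZIP46* alone was higher. All 10 were above 0 in the wild-type library, whereas 4 of them, *Rab16A*, *Rab16C*, *Rab16D* and *LEA3*, were listed at 0 in the *yl-1* library, against 8.32% of all 20902 entries above 0 in the wild-type library. The levels spanned a wide range, with *DREB1A* the highest in both libraries and the *Rab16* genes near the low end.

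**Figure D1:**
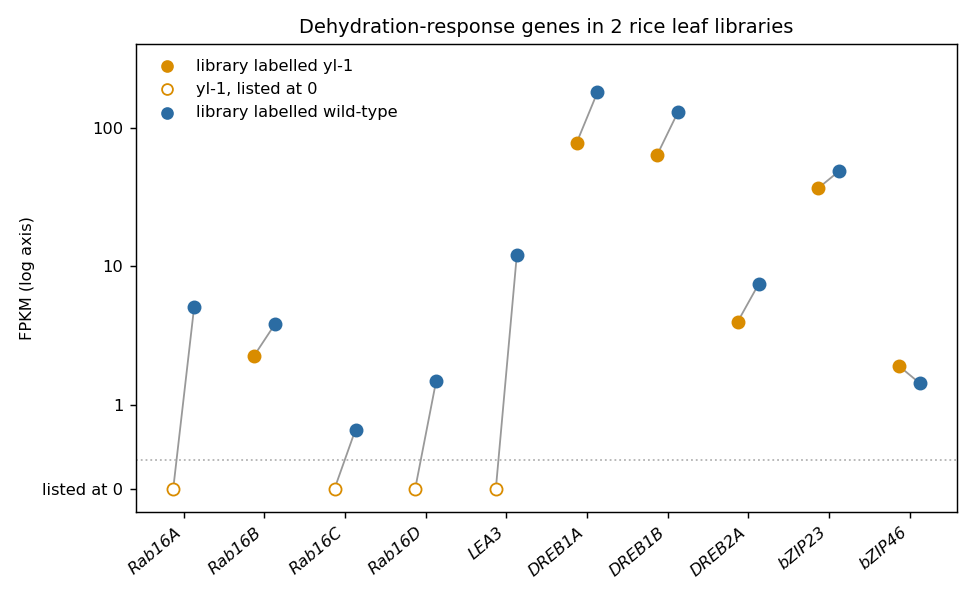
FPKM of each of the 10 genes (log axis) in the library labelled *yl-1* (orange, left) and the library labelled wild-type (blue, right), with open circles below the dotted line for genes listed at 0. The line between the points slopes up to wild-type for 9 genes and down for *bZIP46*, and 4 genes are listed at 0 in the *yl-1* library.

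Entries that averaged 1 FPKM or more over both libraries were compared as log2((FPKM + 1) ratio), *yl-1* over wild-type. That filter left 14559 entries and 8 of the 10 genes, and *Rab16C* and *Rab16D* fell under it. At least 2-fold lower in the *yl-1* library were 4 of the 8, namely *DREB1A*, *DREB1B*, *Rab16A* and *LEA3*, against 3.65% of all entries compared. The last 2 passed the filter through the wild-type value alone and count as lower only through the added 1 FPKM, since they were listed at 0 in the other library. Without them, 2 of 6 were at least 2-fold lower. None of the 8 was at least 2-fold higher, against 2.50% of all entries, and 7 were lower by any amount, against 48.3%. The 7 include *Rab16A* and *LEA3*, whose direction was fixed once they passed the filter through the wild-type value alone. The median log2 ratio was -0.89 over the 8 genes, or -0.66 over the 6 that were above 0 in both libraries, against 0.014 over all entries. After rescaling to an equal FPKM sum, the entries past 2-fold split into 286 higher and 681 lower in place of 364 and 531. The median of all entries was then -0.12. This scaling lowers every *yl-1* value above 0, so the 4 genes could only stay past 2-fold lower. Genes of 1 pathway are not independent of each other, and these counts are a description.

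**Figure D2:**
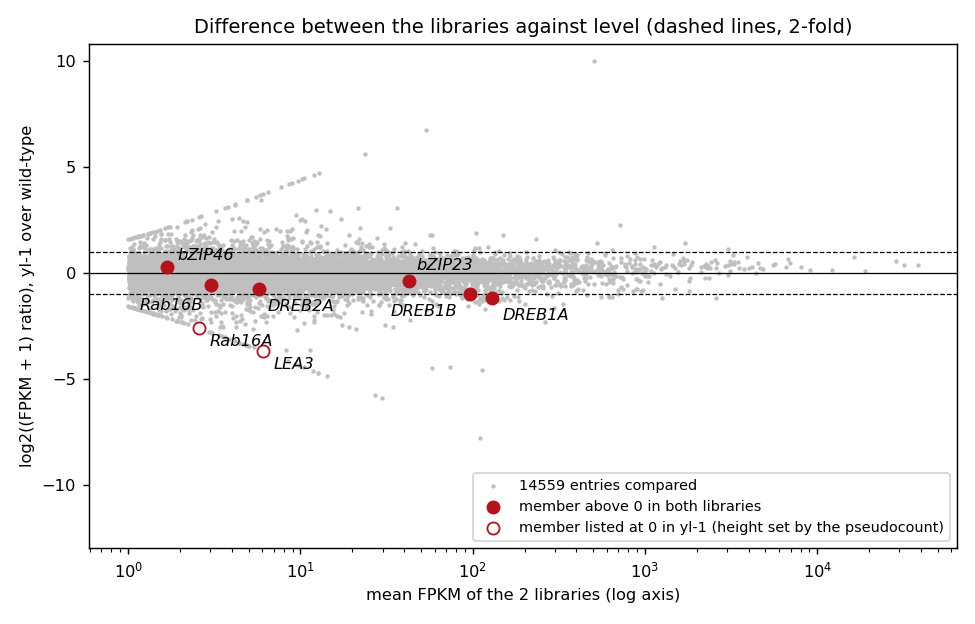
Log2((FPKM + 1) ratio of *yl-1* over wild-type) against the mean FPKM of the 2 libraries (log axis) for the 14559 entries compared (grey) and the 8 genes past the filter (red). *DREB1A* and *DREB1B* lie just under the lower dashed line of 2-fold, and the open circles of *Rab16A* and *LEA3*, listed at 0 in the *yl-1* library, have a height set by the pseudocount.

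The *Rab16* genes, named for their response to ABA, encode dehydrins and lie side by side on chromosome 11. *Rab16A* (LOC_Os11g26790) was listed at 0 in the *yl-1* library and stood at 5.13 FPKM in the wild-type library. *Rab16B* (LOC_Os11g26780) was the one member of the group above 0 in both, with 2.26 FPKM in the *yl-1* library and 3.82 FPKM in the wild-type library, a log2 ratio of -0.57. It did not reach the 2-fold line.

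The other members were near the floor of the table. *Rab16C* (LOC_Os11g26760) was listed at 0 in the *yl-1* library and at 0.666 FPKM in the wild-type library, and *Rab16D* (LOC_Os11g26750) was listed at 0 in the *yl-1* library and at 1.496 FPKM in the wild-type library. How the authors' counting divides reads between related copies is not given in the sources used here, so the division of signal among the 4 genes is uncertain.

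RefSeq places the genes in the order *Rab16D*, *Rab16C*, *Rab16B* and *Rab16A*, with a long noncoding RNA and a pseudogene between *Rab16C* and *Rab16B*. The order of level along the cluster in the wild-type library was *Rab16A*, *Rab16B*, *Rab16D* and *Rab16C*, highest first. In the *yl-1* library *Rab16B* alone had a value above 0. Each of the genes is thus at or below 5.13 FPKM, a low level beside the DREB1 genes.

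**Figure D3:**
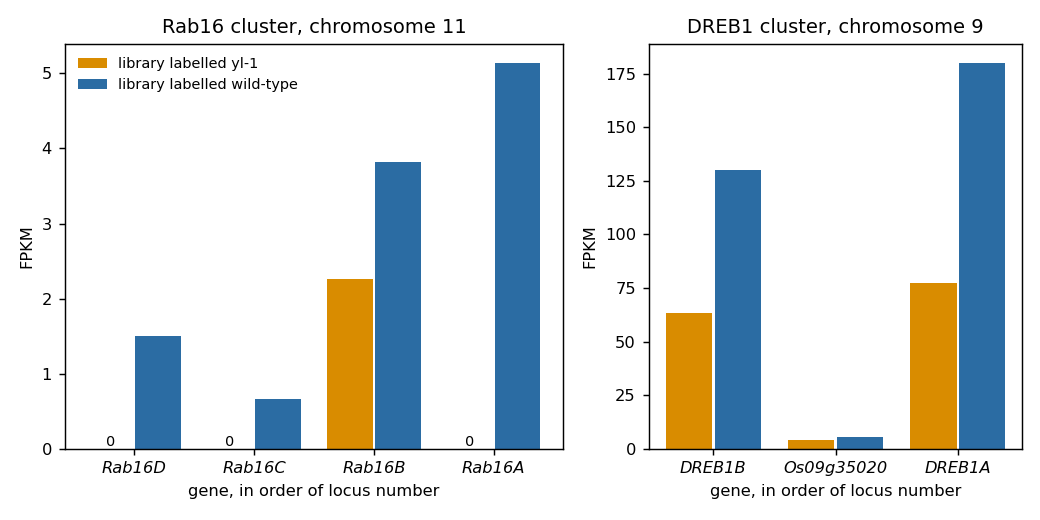
FPKM (bars from 0) along the *Rab16* cluster of chromosome 11 and the *DREB1* cluster of chromosome 9, in order of locus number, in the library labelled *yl-1* (orange, left bar) and the library labelled wild-type (blue, right bar); a 0 marks a gene listed at 0. In both clusters every gene stands lower in the *yl-1* library, and the vertical scales differ (up to 5.13 FPKM for *Rab16A* and 180 FPKM for *DREB1A*).

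*LEA3* (LOC_Os05g46480), on chromosome 5, encodes a group 3 LEA protein that accumulates in drying seeds and in stressed leaves. It was listed at 0 in the *yl-1* library and stood at 12.1 FPKM in the wild-type library, above each of the *Rab16* genes. A value of 0 beside such a level was rare in the table. Of the 5142 entries at 5 to 20 FPKM in the wild-type library, 0.467% were listed at 0 in the *yl-1* library. *LEA3* and *Rab16A* are among these 24 entries, but *Rab16A*, at 5.13 FPKM, lies at the low edge of that range.

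At 5 to 20 FPKM the reverse was about as rare. Of the entries at 5 to 20 FPKM in the *yl-1* library, 0.332% were listed at 0 in the wild-type library. Over the whole table, 19955 entries were above 0 in the *yl-1* library and 20902 in the wild-type library. A value of 0 was thus listed more often in the *yl-1* library. For low entries a 0 was more common, with 4.41% of those at 0.5 to 5 FPKM in the wild-type library, the range of *Rab16C* and *Rab16D*, listed at 0 in the *yl-1* library. No size of change is given for a single gene listed at 0, since an exact 0 in such a table can also be a failed estimate, and in bulk leaves fewer cells that express a gene and less RNA per cell cannot be told apart.

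The DREB genes held the most abundant transcripts of the set. *DREB1A* (LOC_Os09g35030) stood at 77.3 FPKM in the *yl-1* library and 180 FPKM in the wild-type library, a log2 ratio of -1.21. It ranked 1170th among all entries in the *yl-1* library and 532nd in the wild-type library. Its neighbour *DREB1B* (LOC_Os09g35010) stood at 63.6 FPKM in the *yl-1* library and 130 FPKM in the wild-type library, a log2 ratio of -1.02, just past the 2-fold line.

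At this level differences of that size were uncommon. Among the 1228 entries with a mean of 50 to 200 FPKM, 3.91% were at least 2-fold lower in the *yl-1* library, and the median log2 ratio was 0.022. Only 21 of these entries had a lower ratio than *DREB1A* and 46 a lower ratio than *DREB1B*. The genes kept their order, with *DREB1A* above *DREB1B* by a factor of 1.22 in the *yl-1* library and 1.38 in the wild-type library.

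Between them on chromosome 9 lies LOC_Os09g35020, at the place where RefSeq has *DREB1H*, a further member of the family. It stood at 3.93 FPKM in the *yl-1* library and 5.71 FPKM in the wild-type library. It was thus far below its neighbours in both libraries and, like them, lower in *yl-1*. *DREB1A* and *DREB1B* together made up 97.3% of the summed FPKM of the cluster in the *yl-1* library and 98.2% in the wild-type library. The division of reads among these related genes is uncertain too.

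*DREB2A* (LOC_Os01g07120), on chromosome 1, was expressed at a much lower level than the DREB1 pair. It stood at 4.003 FPKM in the *yl-1* library and 7.48 FPKM in the wild-type library, a log2 ratio of -0.76 that did not reach the 2-fold line. *DREB1A* exceeded it by a factor of 19.3 in the *yl-1* library and 24.0 in the wild-type library. All 3 DREB genes were therefore lower in the *yl-1* library, and 2 of them past 2-fold.

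The bZIP factors, which act on ABA-responsive elements, differed least. *bZIP23* (LOC_Os02g52780), a positive regulator of ABA and drought responses, stood at 36.7 FPKM in the *yl-1* library and 48.8 FPKM in the wild-type library, a log2 ratio of -0.40. *bZIP46* (LOC_Os06g10880), a related factor of the same pathway, stood at 1.91 FPKM in the *yl-1* library and 1.43 FPKM in the wild-type library, a log2 ratio of 0.26. Neither reached 2-fold, and they lay on opposite sides of 0. *bZIP23* was the main one of the pair, above *bZIP46* by a factor of 19.2 in the *yl-1* library and 34.1 in the wild-type library.

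Other genes of the pathway were taken from 8 lists with 55 locus IDs, which no source used here pairs with names. Of these, 40 passed the filter, with 16 higher and 24 lower in the *yl-1* library, where 48.3% of all entries compared were lower. At least 2-fold lower were 2 (5 after rescaling to an equal FPKM sum), against 3.65% of all entries without rescaling. At least 2-fold higher were 0, against 2.50%. The median log2 ratio of the 40 was -0.054. The list closest in kind, 6 further DREB1 and DREB2 genes with LOC_Os09g35020 among them, had all 6 lower in the *yl-1* library. Their median was -0.27 and their range -0.86 to -0.055, with 0 past 2-fold. The lowest-expressed of them stood at 0.624 FPKM in the *yl-1* library and 1.56 FPKM in the wild-type library. Only the added 1 FPKM keeps that gene, at -0.65, from counting as 2-fold lower.

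Further dehydrin and LEA genes divided. Of 6 IDs, 3 were listed at 0 in the *yl-1* library and stood at 0.552 to 1.83 FPKM in the wild-type library, and 1 was listed at 0 in both. Of all entries at 0.5 to 5 FPKM in the wild-type library, 4.41% were listed at 0 in the *yl-1* library. Among the receptors, phosphatases, other bZIP, ASR and proline, trehalose and SalT genes below, 1 ID each was above 0 in wild-type alone. A receptor ID was above 0 in the *yl-1* library alone, at 0.660 FPKM. The remaining 2 dehydrin and LEA IDs passed the filter and went opposite ways, at -0.27 and 0.72. The higher one was also the most abundant of the list, at 365 FPKM in the *yl-1* library and 221 FPKM in the wild-type library. The list thus held an abundant gene that ran opposite to *LEA3* and the *Rab16* genes.

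In the signalling chain, the clade A protein phosphatases 2C, which block the kinases when ABA is scarce, leaned to lower values. Of 8 compared, 7 were lower in the *yl-1* library, against 48.3% of all entries, with a median of -0.49. LOC_Os09g15670 of this list was at least 2-fold lower, at 5.45 FPKM in the *yl-1* library and 24.7 FPKM in the wild-type library, a log2 ratio of -1.995. The SnRK2 kinases had 7 of 9 lower, but with a median of -0.052 and 0 past 2-fold. Rescaling changed the 7 to 9 at an equal FPKM sum and to 6 at the same upper quartile. The lowest SnRK2 ratio, -0.97, belonged to a gene at 4.33 FPKM in the *yl-1* library and 9.47 FPKM in the wild-type library. Only the added 1 FPKM keeps this gene from counting as 2-fold lower.

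At the top of the chain, the ABA receptors went both ways, with 3 of 5 higher and a median of 0.049. One receptor-list entry was at least 2-fold lower, LOC_Os06g36670, named after its values were seen, at 0.681 FPKM in the *yl-1* library and 3.13 FPKM in the wild-type library. Other bZIP factors of the same type as *bZIP23* had 3 of 4 higher, with a median of 0.23 and a range of -0.20 to 0.34. The ASR genes, small proteins named for ABA, stress and ripening, had all 4 compared higher in the *yl-1* library. Their median was 0.72 and their range 0.49 to 0.85. The 0.85 belonged to a gene at 1.80 FPKM in the *yl-1* library and 0.554 FPKM in the wild-type library. The ASR ID under the filter was listed at 0 in the *yl-1* library and at 0.740 FPKM in the wild-type library. The 2 compared genes of the proline, trehalose and SalT list were at 0.070 and 0.085, and 4 control genes of common use had a median of 0.060 and a range of -0.069 to 0.19. Rescaling to an equal FPKM sum turned 3 of these medians below 0, to -0.11 for the receptors, -0.051 for the proline, trehalose and SalT list and -0.094 for the control genes.

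**Figure D4:**
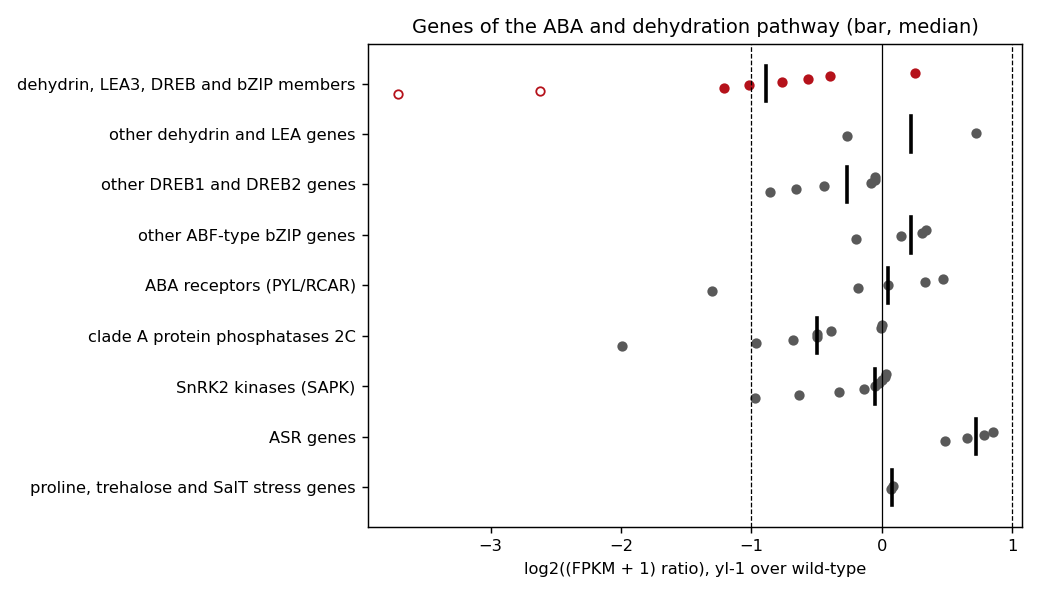
Log2((FPKM + 1) ratio of *yl-1* over wild-type) of each gene past the filter, for the 8 dehydrin, LEA3, DREB and bZIP genes (red, open where listed at 0 in the *yl-1* library) and for 8 lists of the ABA and dehydration pathway (grey), with black bars at the medians and dashed lines at 2-fold. The medians run from -0.89 for the red points and -0.49 for the phosphatases to 0.72 for the ASR genes.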

How the data were processed

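RNA-seq of leaves was available for 1 *yl-1* and 1 wild-type library. The authors deposited FPKM values, and the submitters' processing notes name TopHat, Cufflinks and Cuffdiff without versions. The genome build, the annotation and any filter are likewise not given in the sources used here. Columns were assigned by name, and 0 columns of values were left unused.

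The 10 genes and all lists were chosen with earlier results of these data known. List IDs came from general knowledge of rice nomenclature. Entries that averaged 1 FPKM or more were compared as log2((FPKM + 1) ratio), where the added 1 keeps low genes near 0 and understates their change. Differences past 2-fold were counted over all entries. Entries listed at 0 in 1 library entered counts and medians through the added 1 FPKM, and no fold is printed for them singly. The genes named were the 10, the locus between members of a cluster, and list IDs past 2-fold with at least 10 FPKM in 1 library, at most 2 each way. LOC_Os06g36670 lies outside this rule and was chosen after its values were seen. The computation was tested on simulated data with large planted changes in well-expressed entries. That test did not cover changes near 2-fold, genes of low level or entries listed at 0. Other pseudocounts, filters, fold thresholds and scalings were tried as alternatives. Promoter and protein sequences were not used here. Python 3.11.15, numpy 2.4.6, pandas 2.3.3 and matplotlib 3.10.9 were used.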

Additional observations from a re-analysis of the deposited data

How the results depend on the processing

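No paired analysis was possible because neither genotype has a second library. Over the 6 pseudocounts and scalings, *DREB1A* kept a log2 ratio of -1.36 to -1.19, *DREB1B* of -1.18 to -1.004, *DREB2A* of -0.90 to -0.75, *Rab16B* of -0.76 to -0.55, *bZIP23* of -0.55 to -0.38 and *bZIP46* of 0.16 to 0.41, with each gene on the same side of 0 and of 2-fold. For *DREB1A* and *DREB1B* the side of 2-fold was nearly fixed in advance. Smaller pseudocounts and the equal-sum scaling could only lower their ratios. The other scalings moved the median of all entries little, from 0.014 to between 0 and 0.028. These settings therefore do not tell how firm the 2-fold call is. Against 4 genes at least 2-fold lower, a 4-fold threshold gave 2. These were *Rab16A* and *LEA3*, listed at 0 in the *yl-1* library, with a size set by the added 1 FPKM. No gene above 0 in both libraries reached 4-fold. The mean in place of the median was -1.25 and includes *Rab16A* and *LEA3*. In settings chosen after the data were seen, leaving out entries listed at 0 gave 2 genes at least 2-fold lower and a median of -0.66, and exchanged column names gave 0 lower, 4 higher and a median of 0.89. Of the pathway lists, 2 entries were at least 2-fold lower and 0 higher, against 4 and 1 at a pseudocount of 0.1 or 0.01, 5 lower after rescaling to the same sum, 4 lower with no filter, 1 lower at a mean FPKM of at least 5, 8 and 4 at 1.5-fold, and 0 lower at 4-fold. Rescaling to the same sum took the share of higher entries among all those past 2-fold to 29.6%, against 40.7% without it. Low genes are limited by depth, which is unknown.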

Other observations

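Loci listed next to the tandem clusters were looked at after the data were seen. Of the 10 loci nearest in number to the *Rab16* cluster, 5 on each side, 3 were above 0 in at least 1 library and 2 had a mean FPKM of at least 1. These had log2 ratios of -0.042 and 0.25, so neither lay near 2-fold. Around the *DREB1* cluster 7 of 10 such loci were above 0 in at least 1 library and 4 had a mean FPKM of at least 1, with 2 higher and 2 lower in the *yl-1* library and log2 ratios from -0.80 to 0.73. None of the loci next to either cluster with a mean FPKM of at least 1 was past 2-fold on this ratio with 1 FPKM added. The 0.73 belonged to a locus at 2.61 FPKM in the *yl-1* library and 1.19 FPKM in the wild-type library. Only the added 1 FPKM keeps that locus from counting as 2-fold higher. Locus numbers after the *DREB1* cluster are not contiguous in the table, so these loci need not be its direct neighbours.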
